A study of Rattus norvegicus with 15 samples.

Results

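The 40 genes described here are the parts of the machinery by which a cell copies its DNA and divides, together with the main brakes on it. They were taken by name, with earlier results of these data known. The list holds 8 genes that load or license replication origins, 7 that build nucleotides and copy DNA, and 6 regulators of entry into S phase. It also holds 15 genes of mitosis, and 4 cell cycle brakes and p53 targets. Of the 40, 38 had a probe set (a group of short probes read as one value) carrying their symbol alone, among 14217 such genes on the array. Cdc6 and Rrm2 were not analysed here, Rrm2 because its probe sets carry a second symbol as well. The 38 were read by 55 probe sets, and where a gene had more than 1, as 11 did, the brightest stood for it.

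Expression was measured on an Affymetrix array in 15 liver samples. The rats were male Sprague Dawley, aged 7 weeks when the study began and gavaged each day for 6 weeks. The vehicle group of 5 samples was given 0.5% methylcellulose, and 2 further groups of 5 were given PF-04923503, labelled an inhibitor of ACC (acetyl-CoA carboxylase, which supplies fatty acid synthesis), at 10 mg/kg or 30 mg/kg. All 3 groups, the vehicle group included, were fed a high-fat diet (59% of energy), so every comparison is between high-fat-fed animals and none shows an effect of the diet. The samples are numbered within each group without a statement that each is a separate animal, so the p-values speak only of spread among these samples, which may be technical.

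In adult liver most hepatocytes rest outside the cycle. After injury or hepatectomy, growth factors and cytokines switch on Myc and cyclin D1, cyclin D1 with Cdk4 and cyclin E with Cdk2 release the E2F transcription factors, and E2F turns on the genes that license and copy DNA. The genes of mitosis come on later, and many of them carry promoter elements called CHR and CCAAT boxes. p53 opposes the cycle through p21, the product of Cdkn1a.

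No member of the list differed between groups at an adjusted p under 0.05. At 10 mg/kg 0 of the 21 members that passed the filter on low values were called (limma, Benjamini-Hochberg adjustment; lowest adjusted p = 0.276, Mdm2), where 0.105% of all genes were called. At 30 mg/kg 0 of 21 were called (lowest adjusted p = 0.174, Mcm5), where the share of all genes was 0%, and 0 of 21 were called between the doses (lowest adjusted p = 0.851, Rfc4), again beside 0%. The filter removed 17 members, which were tested in a limma fit without it. That fit also called 0 of the 38 in each comparison, beside 0.0211% of all genes at 10 mg/kg, 0% at 30 mg/kg and 0% between the doses.

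At an unadjusted p under 0.05 in that fit, the 10 mg/kg mean was higher in 4 of 38 members and lower in 1, or 13.2% against 11.3% of all genes (4.49% higher and 6.78% lower). At 30 mg/kg it was higher in 5 and lower in 2, or 18.4% against 16% (8.12% higher and 7.88% lower). Between the doses 0 members were higher and 1 was lower at 30 mg/kg, or 2.63% against 6.33% (3.88% higher and 2.45% lower). These shares lie near the background. Both doses were compared with the same 5 vehicle samples, so a pattern seen at both doses is not seen independently.

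The intervals bound the differences on the brightest probe set of each gene, not what its other probe sets would give. For the 17 members below the filter, signal near the array's low end limits what they can show. In the fit without a filter, the 95% confidence interval of the difference from vehicle lay within 1.5-fold in either direction for 33 of 38 members at 10 mg/kg and 32 of 38 at 30 mg/kg. Mcm4 and Mcm6, with Ccnd1, Myc and Cdkn1a, were outside that bound at 10 mg/kg, and Ccnd1, Myc, Ccnb1, Cdk1, Kif20a and Cdkn1a at 30 mg/kg. These intervals are not adjusted for the number of genes. In RNA of whole liver, fewer cells of a type and less RNA per cell cannot be told apart.

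**Figure D1:**
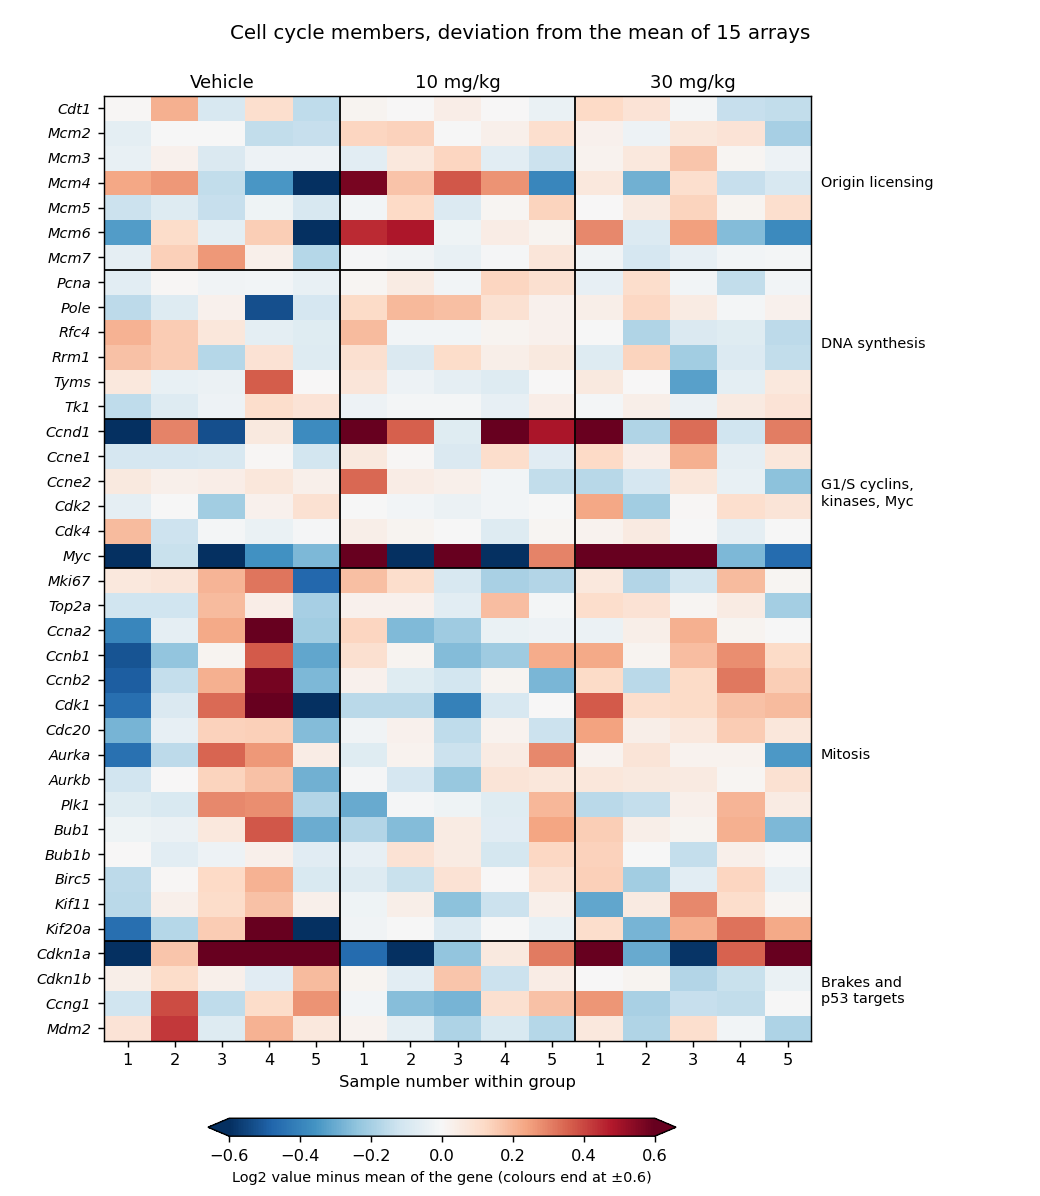
Deviation of each of the 38 measured members (rows, by role) from its own mean over the 15 arrays, on the log2 scale, by sample number within each group (columns); colours end at 0.6 either way. The mitosis rows are strongest in the vehicle columns, where sample 4 is red in most rows and samples 1 and 5 are blue in most.

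Origin licensing comes first in the order of the cycle. Cdt1 helps to load the MCM helicase onto origins, and Mcm2 to Mcm7 are the helicase's 6 subunits. Of the 7 licensing genes on the array, 5 had a higher mean at 10 mg/kg and 5 at 30 mg/kg than in vehicle, where 47.5% and 49.8% of all genes did. Mcm2 averaged 6.17 ± 0.07 in vehicle, 6.32 ± 0.06 at 10 mg/kg and 6.22 ± 0.11 at 30 mg/kg (log2 values, mean ± SD, n = 5 each), so its difference from vehicle was 0.15 at the lower dose (adjusted p = 0.295) and 0.058 at the higher (adjusted p = 0.642).

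Mcm5 was the only member of the 38 whose vehicle and 30 mg/kg samples did not overlap, where 3.02% of all genes had such a gap. Its vehicle samples 1 to 5 read 6.38, 6.43, 6.37, 6.48 and 6.41 on the log2 scale. The 30 mg/kg samples read 6.51, 6.56, 6.65, 6.53 and 6.61, and the 10 mg/kg samples 6.49, 6.63, 6.43, 6.52 and 6.64. All 5 samples at the higher dose thus lay above all 5 vehicle samples, while 10 mg/kg sample 3 lay inside the vehicle range. The step was small, 1.11-fold (95% confidence interval 1.04 to 1.20; adjusted p = 0.174) at 30 mg/kg and 1.09-fold (1.02 to 1.17; adjusted p = 0.295) at 10 mg/kg.

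The subunits of the helicase did not all share one profile over the samples. Mcm6 averaged 5.39 ± 0.33, 5.74 ± 0.25 and 5.51 ± 0.30 and Mcm4 6.77 ± 0.38, 7.09 ± 0.36 and 6.82 ± 0.16 in the vehicle, 10 mg/kg and 30 mg/kg groups. In both, vehicle sample 5 was the lowest of all 15, at 4.91 for Mcm6 and 6.27 for Mcm4. That sample was the lowest of all 15 in 4 of the 7 licensing genes, or 57.1%, where it was in 6.39% of all genes. In 39 other replication genes on the array it was the lowest in 5, or 12.8%. Mcm7 lay within 0.080 of its vehicle mean at both doses, and Mcm3 and Cdt1 within 0.080 as well. With group means removed, Mcm2 and Mcm5 correlated at r = 0.002 over the 15 arrays (permutation p = 0.993; rho = 0.014, permutation p = 0.964), and at -0.095 without the 2 arrays farthest from the median of Mcm2.

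The promoter of Mcm5 is shown because the licensing genes are textbook targets of E2F. It is the 250 bases before the RefSeq start on the plus strand (GRCr8, chr19:13488563-13488812), 5′ to 3′, with E2F letters (TTTCCCGC, TTTCGCGC, TTTGGCGC or TTTGCCGC on either strand) and CCAAT letters (either strand) in capitals. A match is a description of these letters and not a site of binding.
Mcm5: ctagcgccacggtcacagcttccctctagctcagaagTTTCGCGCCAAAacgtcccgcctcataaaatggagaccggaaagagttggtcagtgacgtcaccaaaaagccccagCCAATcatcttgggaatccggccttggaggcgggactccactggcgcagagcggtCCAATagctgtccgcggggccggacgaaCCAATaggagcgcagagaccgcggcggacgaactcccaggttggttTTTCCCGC
The upstream run of capitals holds 2 overlapping matches, TTTCGCGC forward and TTTGGCGC in reverse, and another match ends at the base before the start. E2F letters stood in 4 of the 6 licensing promoters in the RefSeq table (Mcm2, Mcm5, Mcm6 and Mcm7), against 2.94% of the promoters of genes on the array and 1.81% of all 27457 promoters of the same length. The table held 32 of the 38 members.

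The genes of DNA synthesis followed no common direction. Pcna is the sliding clamp, Rfc4 a subunit of the clamp loader, Pole the catalytic subunit of the leading strand polymerase, and Rrm1, Tyms and Tk1 make deoxynucleotides. Of the 6 on the array, 4 had a higher mean at 10 mg/kg and 3 at 30 mg/kg than in vehicle.

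Pole had the lowest unadjusted p of the synthesis genes. Its vehicle samples 1 to 5 read 5.84, 5.92, 6.02, 5.47 and 5.90 on the log2 scale, the 10 mg/kg samples 6.11, 6.19, 6.18, 6.08 and 6.02, and the 30 mg/kg samples 6.03, 6.12, 6.04, 5.98 and 6.02. Vehicle sample 4 was the lowest of all 15. The highest vehicle sample, at 6.02, equalled the lowest 10 mg/kg sample and lay above the lowest 30 mg/kg sample, at 5.98. The difference was 1.22-fold at 10 mg/kg (1.08 to 1.38; adjusted p = 0.205 in the limma fit without a filter) and 1.16-fold at 30 mg/kg (1.03 to 1.30; adjusted p = 0.231 in that fit).

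Rfc4 went the other way from Pole in its means. It averaged 6.99 ± 0.13 in vehicle, 6.97 ± 0.09 at 10 mg/kg and 6.83 ± 0.07 at 30 mg/kg (n = 5 each), a difference of -0.16 from vehicle at the higher dose (adjusted p = 0.240) and of -0.14 between the doses (adjusted p = 0.851). Pcna read 9.02 ± 0.03, 9.10 ± 0.06 and 9.02 ± 0.09, a 1.06-fold difference at 10 mg/kg with an interval of 0.986 to 1.14. Rrm1, Tyms and Tk1 differed from vehicle by between -0.12 and 0.039 at either dose. Over the 13 replication genes, licensing and synthesis together, the median difference was 0.022 at 10 mg/kg, 0.039 at 30 mg/kg and -0.077 between the doses, beside -0.0064, -0.0007 and 0.0080 for all genes.

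Among the regulators of S phase entry, Ccnd1 and Myc had the largest differences from vehicle, and their samples also spread widely. Ccnd1 (cyclin D1), which activates Cdk4 in response to growth signals, read 6.86, 9.90, 9.07, 9.66 and 9.22 in vehicle samples 1 to 5 on the log2 scale. It read 10.29, 9.96, 9.53, 10.48 and 10.09 at 10 mg/kg and 10.19, 9.42, 9.93, 9.48 and 9.90 at 30 mg/kg. Vehicle sample 1 stood alone at the bottom, 2.21 below the next of the 15 samples. Also below every treated sample were vehicle samples 3 and 5, while vehicle samples 2 and 4 lay within the range of both treated groups.

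The Ccnd1 difference was 2.19-fold at 10 mg/kg (1.16 to 4.12; adjusted p = 0.293) and 1.80-fold at 30 mg/kg (0.953 to 3.39; adjusted p = 0.346). Without vehicle sample 1 the log2 difference went from 1.13 to 0.61 at 10 mg/kg (adjusted p = 0.225) and from 0.84 to 0.32 at 30 mg/kg (adjusted p = 0.457). All 3 Ccnd1 probe sets had their lowest value in that sample, 6.86, 6.85 and 6.13, with the lowest of the other 14 samples at 9.07, 8.79 and 7.56. The gap at the low end was the 7th widest among 9540 genes, and of the 6 genes with wider gaps RT1-A and Cyp3a9 also had theirs in vehicle sample 1.

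Myc, a transcription factor induced early when the liver is driven to grow, separated neither group from vehicle. Its vehicle samples read 6.22, 6.92, 6.26, 6.69 and 6.78. At 10 mg/kg samples 1 to 5 read 8.21, 5.68, 7.69, 6.33 and 7.35, and at 30 mg/kg 8.18, 8.22, 7.89, 6.79 and 6.59. Samples 1, 3 and 5 at 10 mg/kg and 1, 2 and 3 at 30 mg/kg lay above the whole vehicle range, and the other treated samples lay within or below it. The SD was 0.32 in vehicle, 1.03 at 10 mg/kg and 0.78 at 30 mg/kg. The difference was 1.39-fold at 10 mg/kg (0.729 to 2.66; adjusted p = 0.672) and 1.94-fold at 30 mg/kg (1.02 to 3.71; adjusted p = 0.299). On the log2 scale the 10 mg/kg difference of 0.48 became 0.19 without 10 mg/kg sample 1 and 0.82 without sample 2 (adjusted p = 0.878 and 0.450).

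The kinases that Ccnd1 and the E cyclins activate differed little. Cdk4 averaged 9.58 ± 0.12, 9.57 ± 0.04 and 9.58 ± 0.04 in the vehicle, 10 mg/kg and 30 mg/kg groups, and Cdk2 7.14 ± 0.11, 7.15 ± 0.01 and 7.21 ± 0.16, with a second Cdk2 probe set of opposite sign at 30 mg/kg (-0.11 against 0.072). Ccne1 (cyclin E1) was 1.12-fold higher at 30 mg/kg (1.03 to 1.21; adjusted p = 0.205), from 6.17 ± 0.05 to 6.33 ± 0.10. Its partner gene Ccne2 had a difference of the opposite sign there, -0.14, on a probe set below the filter. Ccnd1 and Myc did not track each other across samples: r was 0.161 with group means removed (permutation p = 0.366; rho = 0.132, permutation p = 0.613), and 0.018 without vehicle samples 1 and 2.

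**Figure D2:**
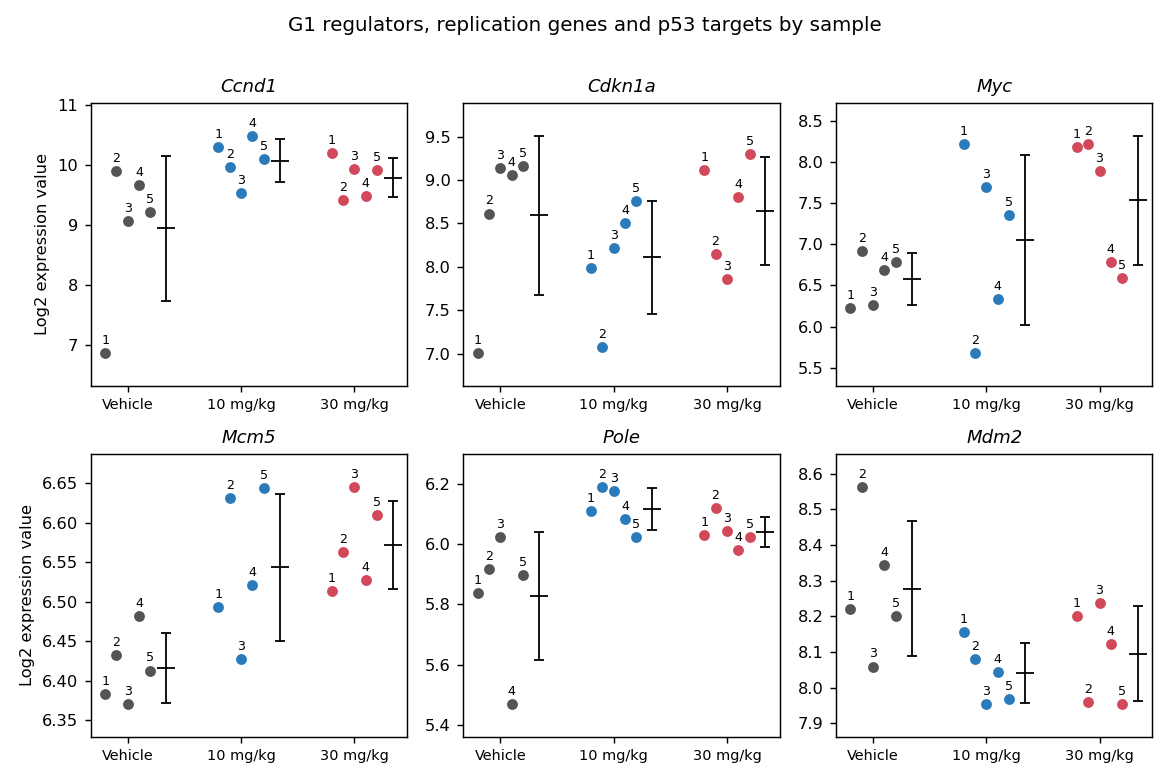
Log2 value of Ccnd1, Cdkn1a, Myc, Mcm5, Pole and Mdm2 in each sample (points, labelled by sample number) by group, with the group mean and SD (bars, n = 5 each); each panel has its own scale. Vehicle sample 1 lies at 6.86 for Ccnd1 and 7.00 for Cdkn1a, and Mcm5 shows 5 samples at 30 mg/kg above 5 in vehicle.

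The genes of mitosis were measured near the low end of the array: 4 of the 15 (Ccnb2, Cdc20, Plk1 and Kif20a) passed the filter, and the other 11 lay below it. Mki67, the gene of the Ki-67 antigen used to count cycling cells, averaged 4.18 ± 0.30 in vehicle, 4.11 ± 0.17 at 10 mg/kg and 4.14 ± 0.14 at 30 mg/kg (n = 5 each). Top2a, the topoisomerase that untangles sister chromosomes, averaged 5.10 ± 0.16, 5.18 ± 0.09 and 5.16 ± 0.12, and its second probe set gave larger differences from vehicle, 0.16 and 0.23 against 0.072 and 0.052. The interval of the fold against vehicle was 0.790 to 1.14 for Mki67 and 0.937 to 1.18 for Top2a at 10 mg/kg, and 0.807 to 1.17 and 0.924 to 1.16 at 30 mg/kg.

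Over the 15 mitosis genes the median difference was -0.024 at 10 mg/kg, 0.031 at 30 mg/kg (-0.0125 after quantile normalisation) and 0.094 between the doses. The mean was higher than in vehicle for 6 of 15 at 10 mg/kg and 10 of 15 at 30 mg/kg, and higher at 30 mg/kg than at 10 mg/kg for 11 of 15, where 53.7% of all genes were. The median of the replication genes between the doses was on the other side of 0, at -0.077, and neither set had a called gene.

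Cdk1, the kinase that drives entry into mitosis, and Cdc20, an activator of the ubiquitin ligase that lets chromosomes part, were the 2 members of 38 whose doses did not overlap, where 1.01% of all genes had such a gap. Cdk1 read 5.71, 5.70, 5.46, 5.77 and 5.87 in the 10 mg/kg samples and 6.24, 5.97, 5.98, 6.04 and 6.06 in the 30 mg/kg samples. In vehicle it read 5.41, 5.78, 6.21, 6.57 and 5.23, so the vehicle samples spanned both treated groups and reached beyond them at either end. The difference between the doses was 1.28-fold (0.967 to 1.69; adjusted p = 0.774 without a filter).

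Cdc20 showed the same order with smaller steps. It read 6.31, 6.36, 6.18, 6.35 and 6.20 at 10 mg/kg, 6.57, 6.37, 6.40, 6.48 and 6.40 at 30 mg/kg, and 6.05, 6.28, 6.47, 6.48 and 6.07 in vehicle. The highest 10 mg/kg sample and the lowest 30 mg/kg sample all but touched, and the vehicle samples again spread over both groups. The difference between the doses was 1.12-fold (limma, interval 0.990 to 1.27, adjusted p = 0.851), or 0.16 on the log2 scale. The other Cdc20 probe sets, all below the filter, gave log2 differences of -0.023, 0.15, 0.072 and 0.047 between the doses.

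Ccnb1 (cyclin B1), the partner of Cdk1, had the lowest unadjusted p of the mitosis genes against vehicle. Its samples 1 to 5 read 5.02, 5.30, 5.55, 5.91 and 5.22 in vehicle, 5.63, 5.55, 5.28, 5.32 and 5.76 at 10 mg/kg and 5.77, 5.55, 5.72, 5.82 and 5.65 at 30 mg/kg. Vehicle sample 4 was the highest of all 15 and vehicle sample 1 the lowest. The difference was 1.23-fold at 30 mg/kg (1.01 to 1.51; adjusted p = 0.294 without a filter), and the second Ccnb1 probe set gave a log2 difference of 0.079 in place of 0.30.

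The mitosis genes spread widely between samples of the vehicle group. The SD was largest in the vehicle group for 13 of the 15, or 86.7%, where it was for 41.7% of all genes with a symbol. The same was so for 5 of the 6 synthesis genes, 4 of the 7 licensing genes, 2 of the 6 regulators of S phase entry and 3 of the 4 brakes and p53 targets, which with the mitosis genes made 27 of 38, or 71.1%. The median SD of the 15 was 0.24 in vehicle, 0.13 at 10 mg/kg and 0.14 at 30 mg/kg, beside 0.12, 0.11 and 0.11 over all genes. Kif20a, a kinesin of cytokinesis, was the widest example among those past the filter, with 5.77, 6.05, 6.38, 6.88 and 5.59 in vehicle. It read 6.20, 6.22, 6.14, 6.22 and 6.18 at 10 mg/kg and 6.33, 5.95, 6.44, 6.55 and 6.45 at 30 mg/kg. Its SD was 0.51 in vehicle, 0.03 at 10 mg/kg and 0.24 at 30 mg/kg. This count was made after the data were seen and has no test, and it ranged from 11 to 14 of 15 when single samples were left out.

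The same vehicle samples set the range in gene after gene. Vehicle sample 4 was the highest of all 15 samples in 9 of 15 mitosis genes, or 60%, where it was in 9.84% of all genes, and vehicle sample 3 was in 3. Vehicle samples 1 and 5 were the lowest of all 15 in 5 genes each, or 33.3%, beside 8.95% and 6.39% of all genes. In a list of 43 other mitosis genes on the array the pattern was weaker. The SD was largest in vehicle for 25, or 58.1%, and vehicle sample 4 was highest in 11, or 25.6%. Vehicle sample 1 was lowest in 13, or 30.2%, and vehicle sample 5 in 5, or 11.6%. Among the 7 licensing genes, vehicle sample 5 was the lowest of all 15 samples in 4, or 57.1%, and among 39 other replication genes in 5, or 12.8%.

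Ccnb1 and Cdk1 moved together across samples within groups. With group means removed r was 0.842 over the 15 arrays (permutation p = 0.00282, 0.0197 after Benjamini-Hochberg adjustment over 7 pairs) and rho 0.786 (permutation p = 0.00317, 0.0222 adjusted). Without vehicle samples 4 and 1, the samples farthest from the median of Ccnb1, r was 0.653. Mki67 and Top2a, tested in the same way, gave r = 0.365 (permutation p = 0.289, 0.506 adjusted; rho = 0.302, permutation p = 0.313), and 0.080 without vehicle samples 5 and 4. Mki67 and Mcm2 gave r = 0.310 (permutation p = 0.261, 0.506 adjusted; rho = 0.363, permutation p = 0.199), and 0.410 without the same samples.

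**Figure D3:**
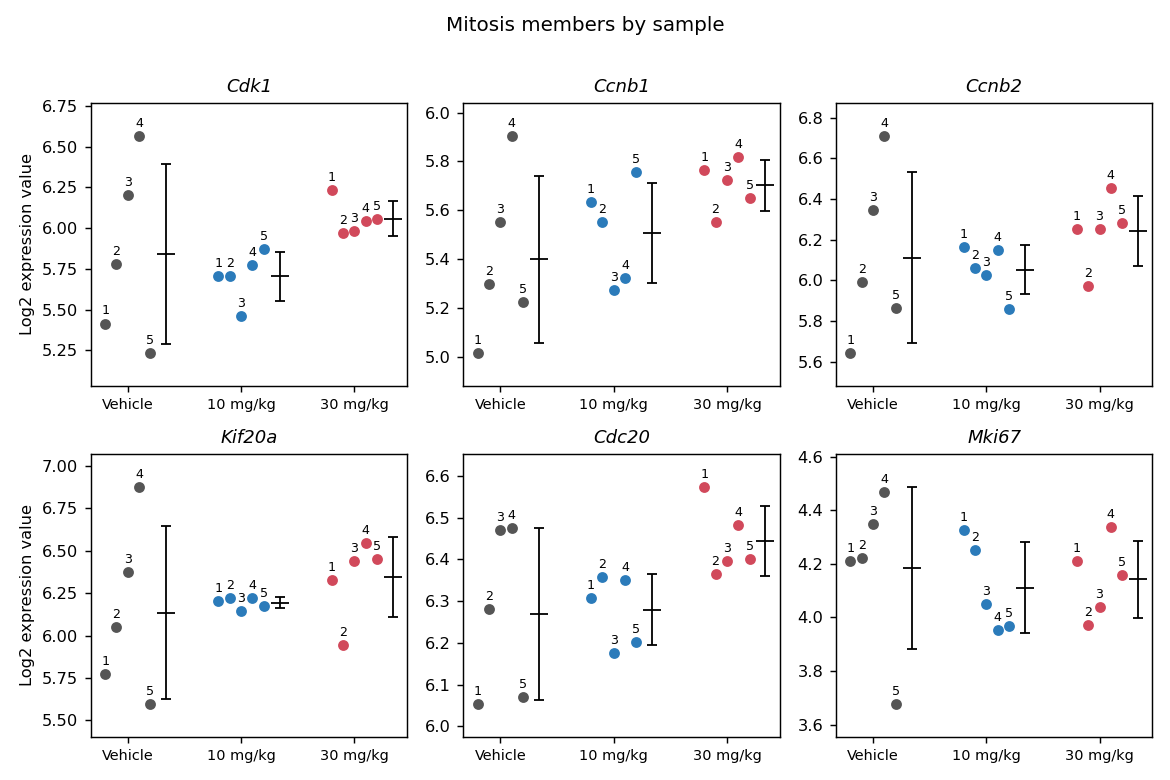
Log2 value of mitosis genes in each sample (points, labelled by sample number) by group, with the group mean and SD (bars, n = 5 each); each panel has its own scale. In Cdk1 the 5 vehicle samples run from 5.23 to 6.57, beyond both treated groups.

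The promoters of Cdk1, Ccnb2 and Cdc20 are shown as examples that hold both CHR and CCAAT letters. A link between these letters and the spread of values was not tested. Each is the 250 bases before the RefSeq start in GRCr8, 5′ to 3′ on the gene's strand: chr20:19265043-19265292, plus strand, for Cdk1, chr8:79981659-79981908, minus strand, for Ccnb2, and chr5:137255800-137256049, minus strand, for Cdc20. Capitals mark CHR letters (the letters TTTGAA, and also the variant that reads TTCGAA), boxes that read CCAAT, and the E2F letters given above, on either strand; a CCAAT box of the other strand appears as its reverse complement.
Cdk1: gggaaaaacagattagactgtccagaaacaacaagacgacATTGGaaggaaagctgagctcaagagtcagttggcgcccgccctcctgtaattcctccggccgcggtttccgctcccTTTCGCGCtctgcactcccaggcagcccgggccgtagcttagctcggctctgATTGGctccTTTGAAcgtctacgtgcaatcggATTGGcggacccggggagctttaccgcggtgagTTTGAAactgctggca
Ccnb2: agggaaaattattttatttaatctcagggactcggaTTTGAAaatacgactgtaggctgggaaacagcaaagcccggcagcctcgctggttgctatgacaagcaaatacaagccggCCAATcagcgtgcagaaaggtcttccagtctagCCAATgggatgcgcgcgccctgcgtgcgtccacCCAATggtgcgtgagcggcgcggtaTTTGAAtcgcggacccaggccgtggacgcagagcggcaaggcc
Cdc20: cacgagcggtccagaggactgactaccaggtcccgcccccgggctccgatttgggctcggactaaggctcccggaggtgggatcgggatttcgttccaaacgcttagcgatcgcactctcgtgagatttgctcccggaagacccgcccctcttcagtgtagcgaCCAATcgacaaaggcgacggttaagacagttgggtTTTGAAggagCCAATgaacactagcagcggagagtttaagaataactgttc
CHR letters nearest the start lay 11 to 16 bases before it in Cdk1, 38 to 43 in Ccnb2 and 46 to 51 in Cdc20. They stood in 7 of the 13 mitosis promoters in the table (Mki67, Top2a, Ccnb2, Cdk1, Cdc20, Bub1b and Birc5), against 12.4% of the promoters of genes on the array and 17.3% of all promoters. CCAAT letters stood in 10 of 13, against 35.1% and 34.3%, and E2F letters in 1 of 13, Cdk1. The letters were not limited to mitosis genes: CCAAT letters stood in 4 of 6 licensing, 3 of 6 synthesis and 3 of 4 brake promoters, CHR letters in 2 of 6, 1 of 6 and 2 of 4, and E2F letters in 1 of 6 synthesis promoters (Tyms). Of the 37 other mitosis genes with a promoter in the table, 22 held CHR letters and 27 CCAAT letters.

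**Figure D4:**
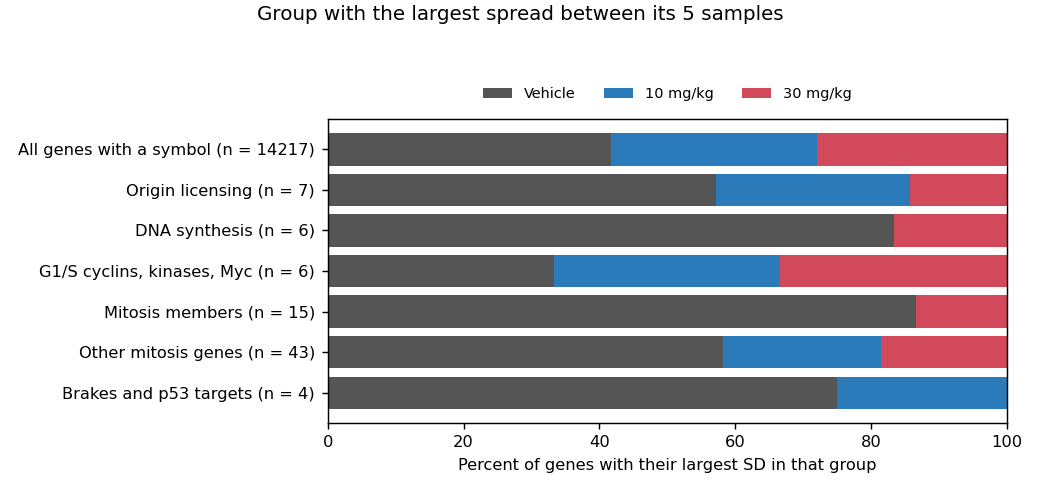
Share of genes (percent, bars) whose SD over 5 samples was largest in the vehicle, 10 mg/kg or 30 mg/kg group, for all genes with a symbol, for the members by role and for the 43 other mitosis genes. The vehicle share is 86.7% for the mitosis members and 41.7% for all genes.

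The brakes and p53 targets ended the list. Cdkn1a encodes p21, which inhibits cyclin-dependent kinases, Cdkn1b encodes the related inhibitor p27, Mdm2 is the ubiquitin ligase that p53 induces and that degrades p53, and Ccng1 (cyclin G1) is another p53 target. Their means were below vehicle in 4 of 4 at 10 mg/kg and 3 of 4 at 30 mg/kg.

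Cdkn1a had the widest spread of the 4. It read 7.00, 8.61, 9.14, 9.05 and 9.16 in vehicle samples 1 to 5, 7.99, 7.08, 8.21, 8.51 and 8.76 at 10 mg/kg, and 9.11, 8.15, 7.86, 8.80 and 9.30 at 30 mg/kg. Vehicle sample 1, which was also lowest for Ccnd1, was the lowest of all 15, and the 3 groups overlapped. The log2 difference was -0.49 at 10 mg/kg (adjusted p = 0.650) and 0.050 at 30 mg/kg (adjusted p = 0.967). Without vehicle sample 1 these became -0.88 (adjusted p = 0.249) and -0.35 (adjusted p = 0.619). Without 10 mg/kg sample 2 the difference at 10 mg/kg was -0.23 (adjusted p = 0.859). The second probe set gave -0.18 at 30 mg/kg in place of 0.050, so no direction can be given there.

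Mdm2 had the lowest adjusted p at 10 mg/kg of the 21 members that passed the filter. It read 8.22, 8.56, 8.06, 8.35 and 8.20 in vehicle, 8.16, 8.08, 7.95, 8.05 and 7.97 at 10 mg/kg and 8.20, 7.96, 8.24, 8.12 and 7.95 at 30 mg/kg. Vehicle samples 1, 2, 4 and 5 lay above every 10 mg/kg sample, vehicle sample 3 lay among them, and the 30 mg/kg samples overlapped both groups. Vehicle was 1.18-fold higher than 10 mg/kg (log2 difference -0.24, interval -0.42 to -0.05; adjusted p = 0.276), and the other 2 probe sets gave -0.32 and -0.20. No member's groups were separate at 10 mg/kg, where 1.89% of all genes had a gap from vehicle.

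Ccng1 differed by -0.16 at 10 mg/kg and -0.14 at 30 mg/kg (adjusted p = 0.616 and 0.589), and Cdkn1b by -0.05 and -0.13 (adjusted p = 0.749 and 0.339). The second Cdkn1b probe set, below the filter, gave -0.13 at 10 mg/kg and -0.28 at 30 mg/kg. With group means removed Cdkn1a correlated with Ccng1 at r = 0.544 (permutation p = 0.0615, 0.215 adjusted; rho = 0.454, permutation p = 0.117) and with Mdm2 at r = -0.180 (permutation p = 0.592, 0.691 adjusted; rho = -0.425, permutation p = 0.153). Without vehicle sample 1 and 10 mg/kg sample 2 these were 0.367 and -0.368.

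**Figure D5:**
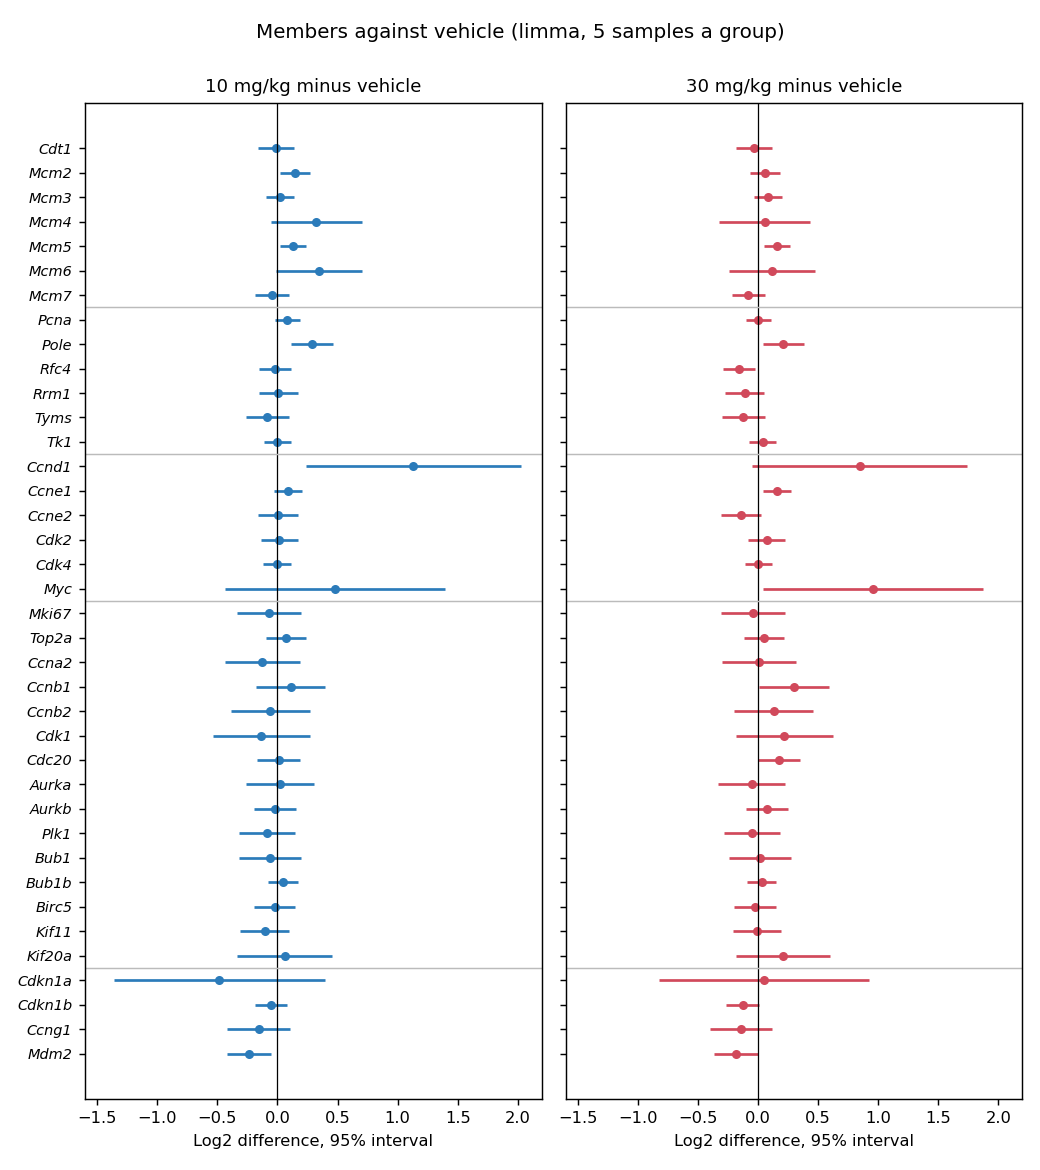
Log2 difference from vehicle with its 95% confidence interval (limma without a filter, 5 samples a group) for the 38 members in order of role, at 10 mg/kg and 30 mg/kg. Most intervals are narrow and cross 0, and those of Ccnd1, Myc and Cdkn1a are the widest.

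The wider pathway gave 0 called genes as well. Of 39 other replication genes on the array, 2 were higher and 2 lower at an unadjusted p under 0.05 (limma) at each dose, or 10.3%, against 11.3% of all genes at 10 mg/kg and 16% at 30 mg/kg. Cdc45, which joins the MCM helicase at the origin, was 0.28 higher at 30 mg/kg without overlap (adjusted p = 0.163; 3.02% of all genes had no overlap there), and Prim2, a primase subunit, differed by -0.41 at 10 mg/kg (adjusted p = 0.206). Of the 43 other mitosis genes 32 had a higher mean at 30 mg/kg than in vehicle, where 49.8% of all genes did, with a median of 0.058. At that unadjusted level 2 of them were higher and 1 lower at 30 mg/kg, or 6.98% against 16% of all genes. At 10 mg/kg 4 were higher and 0 lower, or 9.3% against 11.3%. Only 13 of the 43 passed the filter. Among the 43 other mitosis genes Prc1, which bundles the microtubules of the central spindle, was 0.23 higher at 30 mg/kg without overlap (limma, adjusted p = 0.160 without a filter).

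Of 30 other regulators of S phase entry, 0 passed that unadjusted level at 10 mg/kg, against 11.3% of all genes. At 30 mg/kg 2 were higher and 3 lower, or 16.7% against 16% of all genes. The mean was lower than vehicle in 21 of the 30, with a median of -0.065. The 2 higher genes were E2f1 at 0.22 and E2f8 at 0.15, both below the filter (adjusted p = 0.231 and 0.212). Of 24 other inhibitors and p53 targets 4 were higher and 0 lower at 10 mg/kg, or 16.7% against 11.3% of all genes (4.49% higher). Among those 4 was the DNA repair gene Xpc at 0.48 (adjusted p = 0.275). At 30 mg/kg 1 of the 24 was higher and 1 lower, or 8.33% against 16% of all genes. Mdm4, a relative of Mdm2 that restrains p53, differed by -0.53 at 30 mg/kg (adjusted p = 0.158) and by -0.50 between the doses (adjusted p = 0.851). In a list of 16 genes of hepatocyte growth signals 13 had a higher mean than vehicle at 30 mg/kg and 6 at 10 mg/kg. Of all genes 49.8% and 47.5% did. At an unadjusted p under 0.05 (limma) the shares were 12.5% and 18.8%, against 16% and 11.3% of all genes. Between the doses 15 of 16 were higher at 30 mg/kg (53.7% of all genes), and 31.2% passed that level against 6.33%. At 10 mg/kg Tgfa differed from vehicle by -0.20 (adjusted p = 0.164) and Hgf, below the filter, by -0.19 (adjusted p = 0.383). None of the 16 was called by limma.

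The tissue matched its label, with 9 of 9 hepatocyte markers above the filter and their summed level, as a log2 value, between 17.52 and 17.57 in all samples. Kupffer cell markers had a lower mean than vehicle for 9 of 10 genes at each dose, with sums of 12.91 to 13.45 in vehicle, 12.56 to 13.12 at 10 mg/kg and 12.57 to 13.37 at 30 mg/kg. Endothelial markers were lower in 10 of 10 at each dose, with sums of 12.57 to 12.87, 12.31 to 12.70 and 12.35 to 12.71. Stellate and matrix markers were lower than vehicle in 11 of 12 at 10 mg/kg and 6 of 12 at 30 mg/kg, and higher at 30 mg/kg than at 10 mg/kg in 12 of 12. Cholangiocyte markers, of which 1 of 5 passed the filter, were higher than vehicle in 5 of 5 at each dose. Their sums overlapped, at 8.35 to 8.99 in vehicle, 8.58 to 8.76 at 10 mg/kg and 8.44 to 9.04 at 30 mg/kg. Leukocyte markers, of which 3 of 11 passed the filter, summed to 9.32 to 9.73, 9.13 to 9.47 and 9.19 to 9.62. None of the genes in these lists was called by limma. Vehicle sample 4, the highest for most mitosis genes, had the lowest vehicle leukocyte sum (9.32) and the highest erythroid sum of all samples (14.34, on 3 of 3 markers). Vehicle sample 5, the lowest of its group in 8 of 15 mitosis genes, had an erythroid sum of 14.04. The erythroid sums of 10 mg/kg sample 2 and 30 mg/kg sample 3 were 14.12 and 14.11. Vehicle sample 1, the lowest of all 15 in 5 mitosis genes, had the highest leukocyte sum of all samples (9.73). The part of these cell types in the members' values was not tested.

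Over the series, pairs of arrays correlated at 0.989 to 0.996 across probe sets, and 0 pairs were identical.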

How the data were processed

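Per the labels' protocols, RNA of frozen liver was copied to labelled cRNA and hybridised, 1 array per sample. The authors deposited log2 expression values per probe set. Per the submitters' processing notes, the tools were RMA, GCRMA 2.12.1 and limma 2.14.7; their roles are not given in the sources used here. Normalisation between arrays would hide a change shared by most genes, and the number of arrays limits the precision.

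A probe set was kept if the fifth highest of its 15 values exceeded the median of all values (6.10). The brightest per gene was used, leaving 9540 genes. Group means over all 15 arrays were compared by limma (3.58.1, R 4.3.3) with Benjamini-Hochberg adjustment, and genes were called at an adjusted p under 0.05. Members below the filter were tested without it (14217 genes). Permutation tests of correlations were two-sided with 100000 resamples within groups. The limma step was tested on simulated data. Sample numbers were not taken to pair the samples. Promoters are from RefSeq (GRCr8).

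Named members were up to 3 per role with the lowest unadjusted p against vehicle, plus Mki67, Top2a, Cdk1, Ccnd1, Mcm2, Mcm5, Pcna, Cdkn1a and Myc, and up to 2 genes per other list. Kif20a and members given by mean or range were added after their values were seen. The members and lists were chosen with earlier results of these data known.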

Additional observations from a re-analysis of the deposited data

Results flagged for a closer look

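In 7 of 114 groups of 5 member values, 1 sample stood apart from the rest of its group, where chance gives about 1 in 20 groups. All values are on the log2 scale. In vehicle sample 1, Ccnd1 read 6.86 with the next sample at 9.07, and Cdkn1a read 7.00 with the next at 8.61. In vehicle sample 4, Tyms read 6.15 with the next at 5.85, and Ccne1 read 6.26 with the next at 6.16. Rfc4 read 7.12 in 10 mg/kg sample 1 with the next at 6.96. At 30 mg/kg, Ccna2 read 3.996 in sample 3 with the next at 3.816, and Aurka read 5.07 in sample 5 with the next at 5.43.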

How the results depend on the processing

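No member was called under any alternative: no filter or a stricter one, the mean of probe sets, quantile normalisation, centring, trended and robust moderation, a fit of only the groups compared, the replicate block, and each sample left out in turn. The lowest adjusted p of the members lay between 0.205 and 0.366 at 10 mg/kg, 0.161 and 0.332 at 30 mg/kg and 0.642 and 1.0 between the doses. The count over all genes moved at 10 mg/kg, from 10 to 3 without a filter and to 0 with the replicate number as a block, and to between 0 and 26 with a sample left out; at 30 mg/kg it ran from 0 to 5. Same-numbered samples correlated at -0.0885 to 0.197, and 4 of 15 samples correlated best with their own number, so the numbers were not taken as pairs. Differences near 0 changed sign. At 30 mg/kg Cdkn1a became -0.063 with the mean of probe sets and ran from -0.35 to 0.25 with a sample left out, and Pcna became -0.012 with centring and ran from -0.031 to 0.033. Between the doses Ccng1 became -0.0015 with centring and ran from -0.065 to 0.071, and Mcm5 from -0.0005 to 0.054. At 10 mg/kg Cdc20 ran from -0.045 to 0.061 and Rfc4 from -0.057 to 0.018. With a sample left out, the median of the mitosis members ran from -0.086 to 0.046 at 10 mg/kg and from 0.0082 to 0.10 at 30 mg/kg, where quantile normalisation gave -0.0125, and that of the replication members from 0.0001 to 0.051 and from -0.0038 to 0.039. The cause was not tested. Signal near the array's low end limits 17 of the 38 members.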
